A study of Homo sapiens with 12 samples.

Results

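NRF2, encoded by NFE2L2, is the transcription factor that switches on antioxidant and detoxification genes. Its set here was 10 genes of the 60649 rows of the count tables: NFE2L2 itself, its inhibitor KEAP1, and the target genes GCLC, GCLM, TXNRD1, SRXN1, NQO1, HMOX1, OSGIN1 and ME1. They were chosen by name, as rows whose gene identifier maps to these symbols, and all 10 were found. All 10 also passed the filter on low counts that left 16683 genes to test. In unstressed cells KEAP1 holds NRF2 for ubiquitination by a CUL3 and RBX1 ligase, and the protein is degraded. Oxidants and electrophiles modify KEAP1, NRF2 then accumulates, pairs with a small MAF protein and binds antioxidant response elements, which the repressor BACH1 can also occupy. Much of this control acts on the NRF2 protein, so the NFE2L2 mRNA level is not a measure of NRF2 activity. In lung cancer the pathway is known for drug tolerance, and it is often raised by mutation of KEAP1 or NFE2L2 in types other than small cell cancer.

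The samples were spheroids of SBC3, an established human small cell lung cancer line, so all 12 libraries come from 1 line. RNA was sequenced in 4 treatment groups with 3 libraries each: control, teriflunomide, lurbinectedin, and teriflunomide with lurbinectedin, called the combination below. Teriflunomide is the active form of leflunomide and inhibits DHODH, an enzyme of pyrimidine synthesis; lurbinectedin binds DNA and blocks transcription. Doses and exposure times are not in the labels used here, and neither do they say whether the 3 libraries of a group came from separate cultures, so p-values measure only the spread between these libraries. The series set out to combine the drugs as a treatment for small cell lung cancer.

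Library totals were 23206414 to 33222162 counts. The percent of counts on the 37 mitochondrially encoded genes was 6.26 to 7.17 in the control group, 8.42 to 22.6 under teriflunomide, 13.8 to 17 under lurbinectedin and 13.1 to 24.9 under both drugs. The highest values, 22.6% and 24.9%, belonged to teriflunomide library 3 and combination library 2. With those 37 genes left out of the counts, 7 of the 10 genes passed the test with lurbinectedin and 8 with the combination, the same numbers as with them. Of the small cell lung cancer markers, YAP1 stood at 236 to 259 CPM (read counts scaled to a common library size) in the control libraries and NEUROD1 at 3.67 to 4.29 CPM. There INSM1 and NCAM1 had 0 counts and EPCAM had counts in 1 library, while SYP stood at 16.0 to 17.5 CPM. With lurbinectedin YAP1 fell (log2 fold change -1.92, adjusted p = 1.28e-07), as did NEUROD1 (-1.31, adjusted p = 0.000151), and SYP rose (0.88, adjusted p = 4.21e-06). Of the 4 small cell lung cancer markers tested, 2 were called lower and 2 higher, beside 35.7% and 36.0% of all tested genes. SYP was 1 of the 2 called higher, and the value of the other is not reported here. Of the 9 markers of immune, stromal, endothelial and red cells, COL1A1 stood at 259 to 272 CPM in the control libraries and fell with lurbinectedin (log2 fold change -1.32, edgeR Benjamini-Hochberg adjusted p = 2.54e-08), while the other 8 summed to at most 1.87 CPM in every library, with CD3E at 0 in all 12. The part of these shifts in the results below was not tested.

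Stretches before a transcript start are shown for 5 genes. They were picked because they hold the letters of the antioxidant response element core, TGACNNNGC, or of the related AP-1 site, TGACTCA. The 5 were also picked to include genes that rose (GCLM, KEAP1, OSGIN1), 1 that fell (ME1) and 1 that passed no test against control (TXNRD1). RefSeq windows on GRCh38.p14, from 250 bases before to 50 bases after a transcript start, were present for 9 of the 10 genes. Each line runs 5′ to 3′ on the gene's strand, with capitals marking a match on either strand. GCLM is chr1:93909431-93909580 (minus strand), KEAP1 is the 27 bases at chr19:10502785-10502811 (minus), TXNRD1 is chr12:104215629-104215778 (plus), ME1 is chr6:83431052-83431201 (minus) and OSGIN1 is chr16:83953090-83953239 (plus).
GCLM: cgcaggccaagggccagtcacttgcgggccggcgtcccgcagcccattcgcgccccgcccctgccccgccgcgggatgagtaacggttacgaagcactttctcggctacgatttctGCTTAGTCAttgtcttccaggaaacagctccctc
KEAP1: cccggctctGCTTAGTCAtggtgacct
TXNRD1: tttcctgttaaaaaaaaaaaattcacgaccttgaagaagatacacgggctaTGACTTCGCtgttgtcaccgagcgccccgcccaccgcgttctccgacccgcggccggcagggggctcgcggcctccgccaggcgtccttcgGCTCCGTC
ME1: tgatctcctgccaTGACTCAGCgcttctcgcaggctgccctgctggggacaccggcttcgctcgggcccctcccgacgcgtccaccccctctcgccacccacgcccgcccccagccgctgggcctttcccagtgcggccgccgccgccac
OSGIN1: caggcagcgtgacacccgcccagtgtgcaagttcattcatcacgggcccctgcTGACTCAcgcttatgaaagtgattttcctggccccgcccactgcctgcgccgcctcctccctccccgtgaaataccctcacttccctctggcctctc
GCLM and KEAP1 shared 1 match, TGACTAAGC, read on the opposite strand. It began 34 bases before a GCLM start and 31 bases before a KEAP1 start, and each start lies inside the span of its gene. TXNRD1 held TGACTTCGC, 99 bases before its start, and a match on the opposite strand, TGACGGAGC, whose last base lies past the printed window. ME1 held TGACTCAGC, 137 bases before its start, a stretch that matches both motifs at once. OSGIN1 held TGACTCA, 97 bases before a start that lies inside the span of the OSGIN1 gene, and no TGACNNNGC. Matches outside the printed stretches were TGACACGGC, 54 bases before the same KEAP1 start, TGACAAAGC, 102 bases before another TXNRD1 start, and TGACGGTGC from base 12 of the ME1 transcript, the TXNRD1 and ME1 matches on the opposite strand. In all, TGACNNNGC was in the windows of 4 of the 9 genes (GCLM, KEAP1, ME1 and TXNRD1), beside 19.3% of the 11362 tested genes with a window and 13.3% of all 35116 windows. TGACTCA was in 2 of the 9 (ME1 and OSGIN1), beside 4.86% of tested genes. The looser TGANNNNGC, which every TGACNNNGC also matches, was in 7 of the 9 beside 51.0%. These are matches of letters, not bound sites, and a gene without a match may hold one outside these windows.

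With lurbinectedin alone, 6 of the 10 genes rose and 1 fell. OSGIN1 was 9.93-fold higher than in the control, HMOX1 3.07-fold, GCLM 2.15-fold, KEAP1 1.98-fold, NQO1 1.89-fold and GCLC 1.42-fold, while ME1 was 25.1-fold lower. NFE2L2 itself, TXNRD1 and SRXN1 did not pass the test. Lurbinectedin moved much of the transcriptome: 36.0% of tested genes were called higher and 35.7% lower, 71.6% together, so 7 of 10 is near the background share. Lurbinectedin and control libraries did not overlap in CPM for any of the 10 genes, beside 83.2% of tested genes without overlap. The median log2 fold change was 0.80 over the 10 genes and 0.05 over all tested genes. With teriflunomide alone, 0 of the 10 passed the test in edgeR, beside 6.01% of tested genes. CPM is relative to the other counts of a library, so a higher CPM does not by itself show more RNA per cell. RNA from whole spheroids was measured, so a change within cells and a change in the share of cells with that RNA cannot be told apart either.

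**Figure D1:**
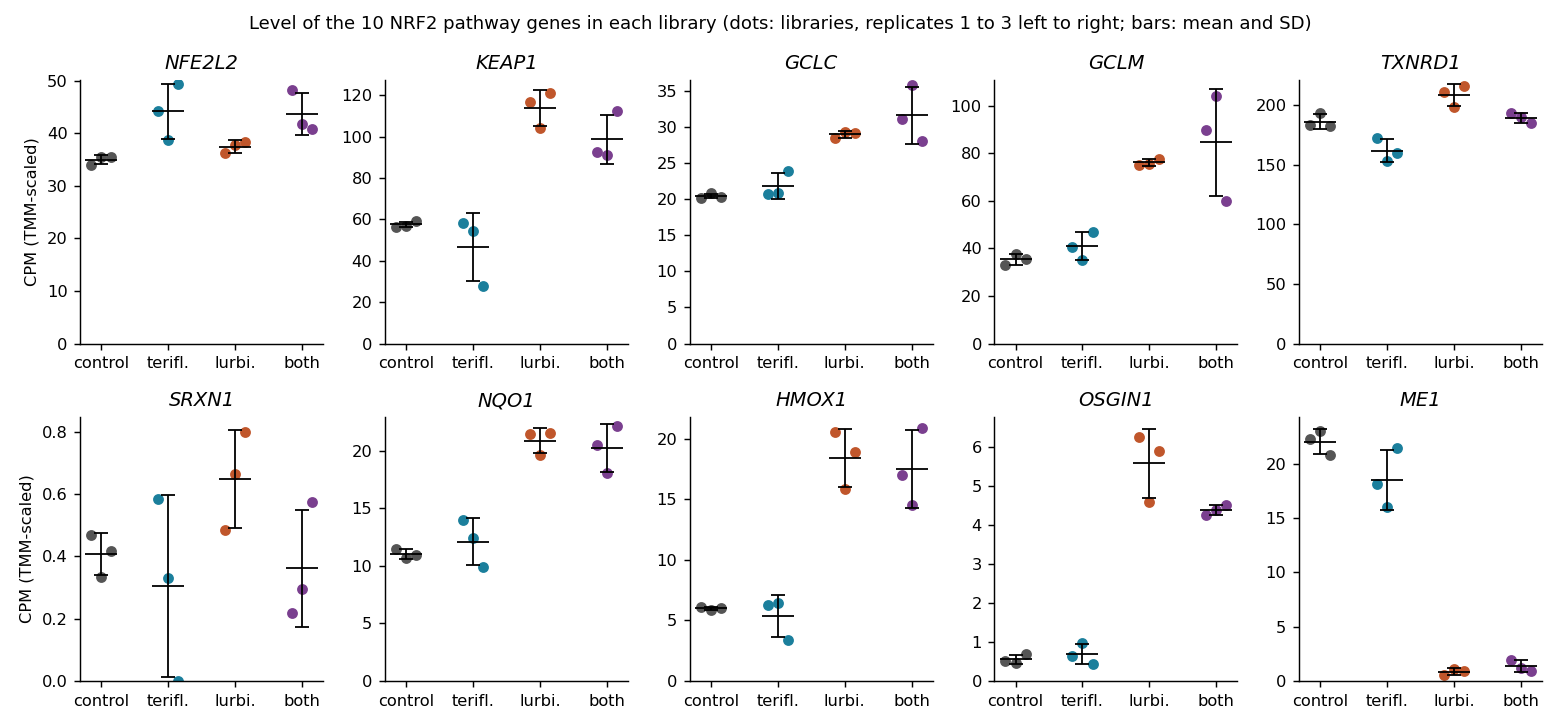
CPM of each of the 10 genes (y axis, linear, own scale per panel, from 0) in every library (points) of the 4 groups (x axis), with the group mean and SD in black. OSGIN1, HMOX1, GCLM, KEAP1, NQO1 and GCLC stand higher in the lurbinectedin and combination libraries than in the control libraries, and ME1 falls from 20.8 to 23 CPM in the control to 0.533 to 1.09 with lurbinectedin.

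NFE2L2 (ENSG00000116044.16, hg38 chr2:177227595-177392697, minus strand, exons totalling 5671 bp) encodes NRF2. Its level was 33.9, 35.4 and 35.5 CPM in the control group, 44.3, 38.8 and 49.3 under teriflunomide, 36.2, 37.8 and 38.4 under lurbinectedin, and 48.3, 41.9 and 40.9 under both drugs. On this scale all 9 treated libraries lay above the control range, the lurbinectedin libraries only just; scaled by library size alone, the log2 fold change with lurbinectedin turned to -0.13. The log2 fold change was 0.10 (SE 0.113, adjusted p = 0.438) with lurbinectedin. It was 0.34 (SE 0.113) with teriflunomide, where the adjusted p of edgeR was 0.0907 and that of DESeq2 0.0348. With the combination it was 0.32 (SE 0.113, adjusted p = 0.0212), a call that was lost when any 1 control library or combination library 1 was left out (adjusted p 0.0541 to 0.0860). It was also lost with no expression filter (0.26, adjusted p = 0.187) and with scaling by library size alone (0.16, adjusted p = 0.331). Of its exonic bases, 18.6% are shared with an overlapping gene on the same strand, ENSG00000213963, which had 346 counts beside 13899 for NFE2L2.

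KEAP1 (ENSG00000079999.14, chr19:10486125-10503558, minus strand, 3573 exonic bp) is the sensor that marks NRF2 for degradation. Its level was 56.5, 57.0 and 59.2 CPM in the control, 58.1, 54.6 and 28.0 under teriflunomide, 117, 104 and 121 under lurbinectedin, and 92.5, 91.3 and 112 under both drugs. Every library with lurbinectedin, alone or combined, lay above every library without it. KEAP1 rose by a log2 fold change of 0.98 (SE 0.203, adjusted p = 0.000599) with lurbinectedin and 0.78 (SE 0.202, adjusted p = 0.00363) with the combination. Scaled by library size alone, the combination value was 0.62 and did not pass (adjusted p = 0.0640). Teriflunomide library 3 stood at 28.0 CPM, well below the other two; without it, the log2 fold change with teriflunomide moved from -0.30 to -0.03, neither past the test.

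GCLC and GCLM encode the catalytic and the modifier subunit of glutamate-cysteine ligase, the rate-limiting enzyme of glutathione synthesis. GCLM (ENSG00000023909.10, chr1:93885199-93909456, minus strand, 5426 exonic bp) stood at 33.1, 37.5 and 35.7 CPM in the control, 40.7, 35.2 and 47.1 under teriflunomide, 75.2, 75.4 and 77.8 under lurbinectedin, and 89.9, 104 and 59.9 under both drugs. The lurbinectedin libraries lay within 3 CPM of each other and far above the control, and the combination libraries were the most spread of the 4 groups. The log2 fold change was 1.10 (SE 0.170, adjusted p = 4.92e-05) with lurbinectedin and 1.26 (SE 0.170, adjusted p = 1.68e-05) with the combination. GCLC (ENSG00000001084.13, chr6:53497341-53616970, minus strand, 8618 exonic bp) stood at 20.2, 20.8 and 20.3 CPM in the control, 20.7, 20.8 and 24.0 under teriflunomide, 28.5, 29.4 and 29.2 under lurbinectedin, and 31.1, 35.8 and 28.0 under both drugs. Libraries with and without lurbinectedin did not overlap for GCLC either. Its log2 fold change was 0.50 (SE 0.115, adjusted p = 0.00132) with lurbinectedin and 0.63 (SE 0.115, adjusted p = 0.000251) with the combination. Scaled by library size alone, the lurbinectedin value was 0.27 and just missed the threshold (adjusted p = 0.050). Both subunits rose, and across the 12 libraries their log2 CPM were the most alike pair of the 10 genes (Pearson r = 0.99, a description over libraries that share treatments and depth).

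TXNRD1 and SRXN1 serve the thioredoxin branch: thioredoxin reductase recharges thioredoxin with NADPH, and sulfiredoxin restores over-oxidised peroxiredoxins. TXNRD1 (ENSG00000198431.16, chr12:104215779-104350307, plus strand, 6710 exonic bp) stood at 183, 194 and 182 CPM in the control, 172, 153 and 160 under teriflunomide, 212, 198 and 216 under lurbinectedin, and 194, 190 and 185 under both drugs. Teriflunomide libraries lay below the control, lurbinectedin libraries above, and combination libraries among the control. None of these differences from the control passed the test: the log2 fold changes were -0.20 (SE 0.0841, adjusted p = 0.156), 0.16 (SE 0.0841, adjusted p = 0.0952) and 0.02 (SE 0.0841, adjusted p = 0.813). The lurbinectedin and combination values turned negative, -0.07 and -0.14, when libraries were scaled by size alone. The lurbinectedin value passed in 3 alternative fits: 0.21 with a filter at 1 CPM (adjusted p = 0.0311), 0.14 with only the groups compared (adjusted p = 0.0133) and 0.15 without teriflunomide library 3 and combination library 2 (adjusted p = 0.0339). SRXN1 (ENSG00000271303.2, chr20:646615-653200, minus strand, 2528 exonic bp) was hardly detected, with 149 counts over the 12 libraries and 0 in teriflunomide library 3, where a count of 0 allows up to 0.102 CPM. Its other values ran from 0.217 to 0.800 CPM, and its log2 fold changes were -0.36 (SE 0.625) with teriflunomide, 0.69 (SE 0.583) with lurbinectedin and -0.13 (SE 0.627) with the combination, none past the test. A gene on the same strand, ENSG00000270299, shares 90.7% of the SRXN1 exonic bases and leaves 236 bp unshared. That gene had 0 counts, and reads in shared exons may have been left uncounted, so the SRXN1 level is uncertain.

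NQO1 and HMOX1 are the most used readouts of the pathway. NQO1 reduces quinones, and HMOX1 is heme oxygenase 1, which opens heme to biliverdin, iron and carbon monoxide. NQO1 (ENSG00000181019.13, chr16:69706996-69726668, minus strand, 2971 exonic bp) stood at 11.5, 10.7 and 11 CPM in the control, 14.0, 12.4 and 9.91 under teriflunomide, 21.5, 19.6 and 21.6 under lurbinectedin, and 20.5, 18 and 22.2 under both drugs. No library with lurbinectedin overlapped one without it. The log2 fold change was 0.92 (SE 0.137, adjusted p = 3.53e-05) with lurbinectedin and 0.88 (SE 0.137, adjusted p = 6.20e-05) with the combination. HMOX1 (ENSG00000100292.18, chr22:35380361-35394214, plus strand, 2306 exonic bp) stood at 6.13, 5.85 and 6.03 CPM in the control, 6.30, 6.41 and 3.37 under teriflunomide, 20.6, 15.9 and 18.9 under lurbinectedin, and 17, 14.5 and 20.9 under both drugs. Its groups also separated by lurbinectedin, and teriflunomide library 3 was the lowest of the 12. The log2 fold change was 1.62 (SE 0.213, adjusted p = 1.10e-05) with lurbinectedin and 1.54 (SE 0.213, adjusted p = 1.92e-05) with the combination.

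OSGIN1 and ME1 moved furthest, in opposite directions. OSGIN1 (ENSG00000140961.14, chr16:83931311-83966332, plus strand, 5558 exonic bp), an oxidative stress-induced growth inhibitor that is also described as a p53 target, stood at 0.503, 0.468 and 0.687 CPM in the control and 0.645, 0.958 and 0.443 with teriflunomide. It reached 6.25, 4.57 and 5.89 CPM with lurbinectedin and 4.24, 4.38 and 4.50 with the combination. All 6 libraries with lurbinectedin were several times above the 6 without it. The log2 fold change was 3.31 (SE 0.247, adjusted p = 3.60e-08) with lurbinectedin and 2.97 (SE 0.249, adjusted p = 1.45e-07) with the combination. MLYCD, on the same strand, shares 8.22% of the OSGIN1 exonic bases and had 3451 counts over the 12 libraries beside 889 for OSGIN1. ME1 (ENSG00000065833.9, chr6:83210402-83431051, minus strand, 3338 exonic bp) is cytosolic malic enzyme, which makes NADPH. Its level was 22.3, 23 and 20.8 CPM in the control, 18.2, 16.0 and 21.5 under teriflunomide, 0.533, 1.09 and 0.945 under lurbinectedin, and 1.95, 1.22 and 0.957 under both drugs. Each of the 6 libraries with lurbinectedin held only 11 to 54 ME1 counts, and all 6 without it stood at 16.0 CPM or more. It fell by 4.65 on the log2 scale (SE 0.256, adjusted p = 1.88e-09) with lurbinectedin and by 4.0 (SE 0.238, adjusted p = 5.25e-09) with the combination. OSGIN1 and ME1 were the least alike pair of the 10 genes over the 12 libraries (Pearson r = -0.99).

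**Figure D2:**
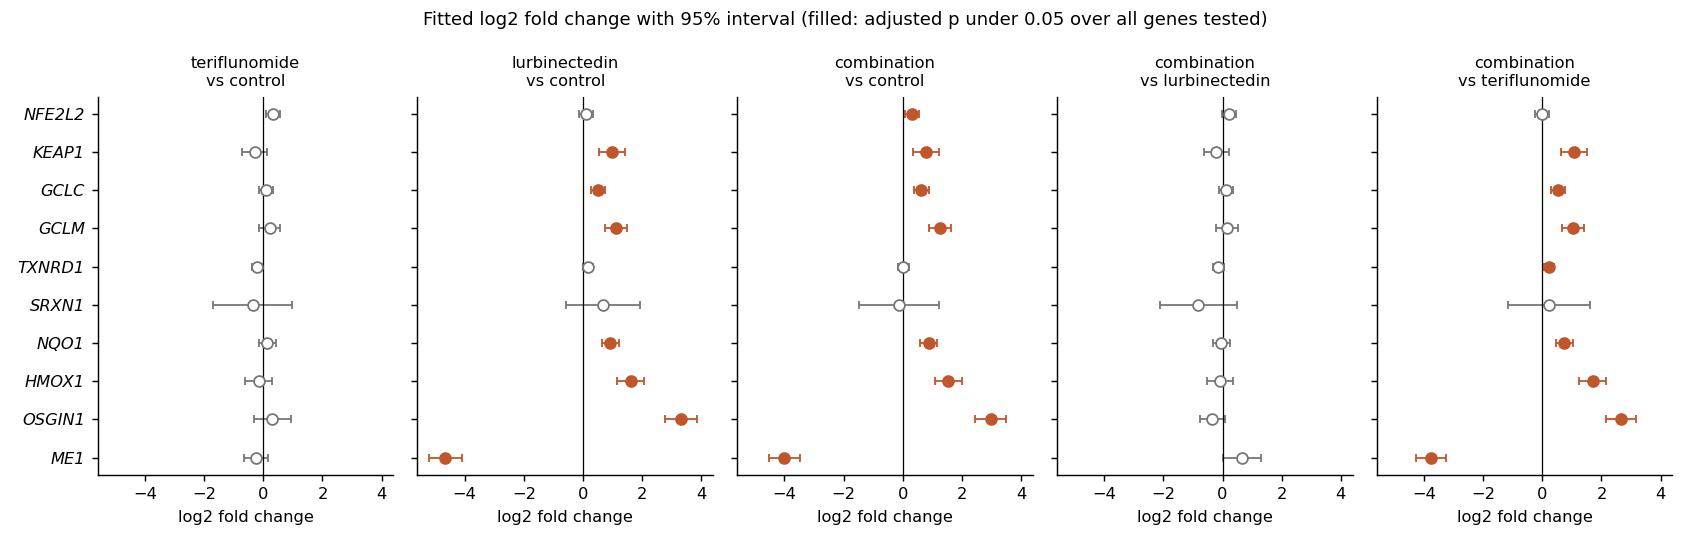
Fitted log2 fold change (x axis) of each gene (y axis) in 5 comparisons, with the 95% interval as a bar; filled points have an adjusted p under 0.05 over all genes tested. Against control, the lurbinectedin and combination panels show the same genes filled except for NFE2L2, filled only with the combination. The combination against teriflunomide has TXNRD1 filled in place of NFE2L2. No point is filled for teriflunomide against control or for the combination against lurbinectedin.

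With the combination against control, 7 of the 10 genes rose and 1 fell, beside 34.1% of tested genes called higher and 34.4% lower (68.4% together). The genes that passed were the 7 of the lurbinectedin comparison with NFE2L2 added; both comparisons use the same control libraries. The groups did not overlap for 8 of the 10, beside 77.2% of tested genes. The median log2 fold change was 0.70 over the 10 genes and 0.04 over all tested genes.

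Under teriflunomide alone, 6.01% of tested genes passed in edgeR (3.88% higher and 2.13% lower), and 0 of the 10. A gene that missed the threshold is not shown to be unchanged. DESeq2 called 1, NFE2L2, beside 1890 of all tested genes. At an unadjusted p under 0.05 in edgeR there were 2, NFE2L2 higher and TXNRD1 lower, beside 4143 of the 16683 tested genes. These were also the 2 genes whose teriflunomide and control libraries did not overlap, beside 36.8% of tested genes without overlap. The 95% intervals of the log2 fold changes were -0.15 to 0.57 for GCLM, -0.16 to 0.43 for NQO1, -0.15 to 0.34 for GCLC and -0.62 to 0.31 for HMOX1. Without teriflunomide library 3, HMOX1 moved from -0.16 to 0.08 and SRXN1 from -0.36 to 0.17, and still 0 of the 10 passed.

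Adding teriflunomide to lurbinectedin gave no call among the 10 genes, beside 0.0% of the 16683 tested (edgeR, adjusted p under 0.05; 2599 genes had an unadjusted p under 0.05). DESeq2 called 0 of the 10 as well, and 584 of all genes. Only ME1 had an unadjusted p under 0.05 among the 10: its log2 difference was 0.65 (95% interval 0.01 to 1.29, adjusted p = 0.314), from 0.858 ± 0.291 CPM with lurbinectedin to 1.38 ± 0.517 with the combination (SD, n = 3), with the 2 groups overlapping. The difference in OSGIN1 was -0.35 (95% interval -0.78 to 0.08) and that in SRXN1 -0.82 (-2.12 to 0.47). The intervals were narrower for NQO1 (-0.33 to 0.24), GCLC (-0.12 to 0.37), GCLM (-0.21 to 0.51) and TXNRD1 (-0.32 to 0.04). A difference that misses the threshold does not show that the 2 treatments gave equal levels. The groups did not overlap for NFE2L2, higher with the combination, and for TXNRD1 and OSGIN1, lower, beside 23.7% of tested genes without overlap.

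Against teriflunomide alone, the combination had 7 of the 10 genes higher and 1 lower, beside 35.2% of tested genes higher and 35.8% lower (70.9% together). The groups did not overlap for these 8 genes, beside 70.7% of tested genes. NFE2L2 was level with teriflunomide (log2 -0.02, SE 0.113, adjusted p = 0.910). HMOX1 was higher by 1.70 (SE 0.214, adjusted p = 7.43e-06), OSGIN1 by 2.66 and GCLM by 1.05, and ME1 fell by 3.75. TXNRD1 passed in this comparison only by a small margin (0.23, SE 0.0842, adjusted p = 0.0264), and that call was lost in 6 of the alternative settings.

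The interaction asks whether teriflunomide acts differently with lurbinectedin present. It was called for 0 of the 10 genes, beside 0.258% of tested genes (0.036% higher and 0.222% lower). DESeq2 called 0 of the 10, beside 256 of all tested genes. In edgeR 1 of the 10 had an unadjusted p under 0.05, beside 1726 of the 16683 tested genes. That gene was ME1, at 0.90 (SE 0.354, adjusted p = 0.393). With teriflunomide library 3 and combination library 2 both left out, an alternative added after seeing their mitochondrial share, the ME1 interaction was 1.07 and passed (adjusted p = 0.0415).

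Levels can be set side by side between genes per length, as RPKM (CPM per kilobase of exon). In the control TXNRD1 led at 27.8 ± 0.954 RPKM (SD, n = 3 for all values here), followed by KEAP1 at 16.1 ± 0.397. ME1 at 6.61 ± 0.338, GCLM at 6.53 ± 0.411 and NFE2L2 at 6.17 ± 0.156 came next, and neighbours among these 3 did not differ beyond their spread. NQO1 at 3.71 ± 0.135, HMOX1 at 2.60 ± 0.0622 and GCLC at 2.38 ± 0.0363 were lower, and SRXN1 and OSGIN1 stood at 0.161 ± 0.0269 and 0.0994 ± 0.0212. With lurbinectedin KEAP1 (31.9 ± 2.48) and TXNRD1 (31.1 ± 1.40) were level within their spread. GCLM (14.0 ± 0.268) came next. HMOX1 (8.0 ± 1.04), NQO1 (7.03 ± 0.366) and NFE2L2 (6.61 ± 0.203) followed, and neighbours among these 3 did not differ beyond their spread. GCLC (3.37 ± 0.0542) was lower. OSGIN1 reached 1.0 ± 0.159, and ME1, among the higher genes in the control, was last with SRXN1 at 0.257 ± 0.0871. The RPKM of SRXN1 carries the doubt about its shared exons. Smaller parts of the exonic bases are shared for NQO1 (19.4%, opposite strand), NFE2L2 (18.6%, same strand), OSGIN1 (8.22%, same strand) and GCLC (6.14%, same strand). The effect of this sharing on their RPKM was not tested.

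**Figure D3:**
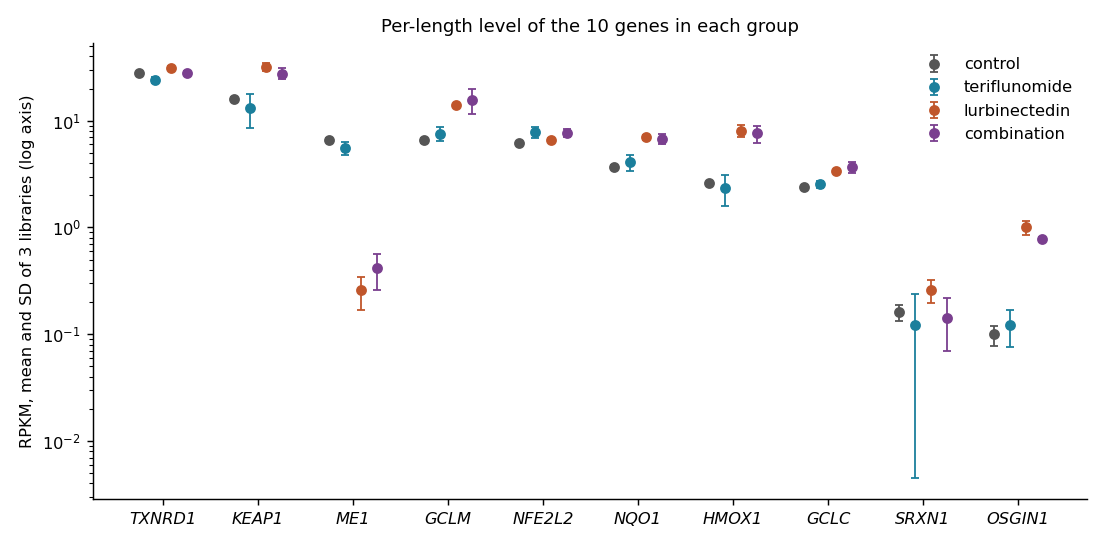
RPKM (y axis, log scale) of the 10 genes (x axis, ordered by control level) in each group, as the mean (point) and SD (bar) of 3 libraries. KEAP1 reaches the level of TXNRD1 with lurbinectedin (31.9 and 31.1), and ME1 drops from 6.61 to 0.257 while OSGIN1 rises from 0.0994 to 1.0.

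The genes differ in genomic span, and the response to lurbinectedin differed with span over all genes. When the tested nuclear genes were split by span into 5 bins of equal size, the median log2 fold change was 0.69 in the bin of shortest genes, then 0.62, 0.28, -0.36 and -1.86 in the bin of longest genes, which starts at 82.9 kb. In that last bin 83.7% of genes were called lower and 5.83% higher. NFE2L2 (165 kb), GCLC (120 kb), TXNRD1 (135 kb) and ME1 (221 kb) lie in it. NFE2L2, GCLC and TXNRD1 stood at the 90.9th, 94.2nd and 91.5th percentile of its log2 fold changes, and ME1 at the 7.87th. KEAP1, NQO1, GCLM and OSGIN1 lie in the middle bin, at the 80.1st, 78.2nd, 83.4th and 98.6th percentile. HMOX1 and SRXN1 lie in the bin of 5.26 to 16.3 kb, at the 84.9th and 53.2nd. All but ME1 thus stood above the median of their own bin, SRXN1 only just and with few counts. With the combination both ME1 (9.43rd percentile) and SRXN1 (21.6th) stood below the median of their bin, and the other genes of the set above it. The part of span in these values was not tested.

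**Figure D4:**
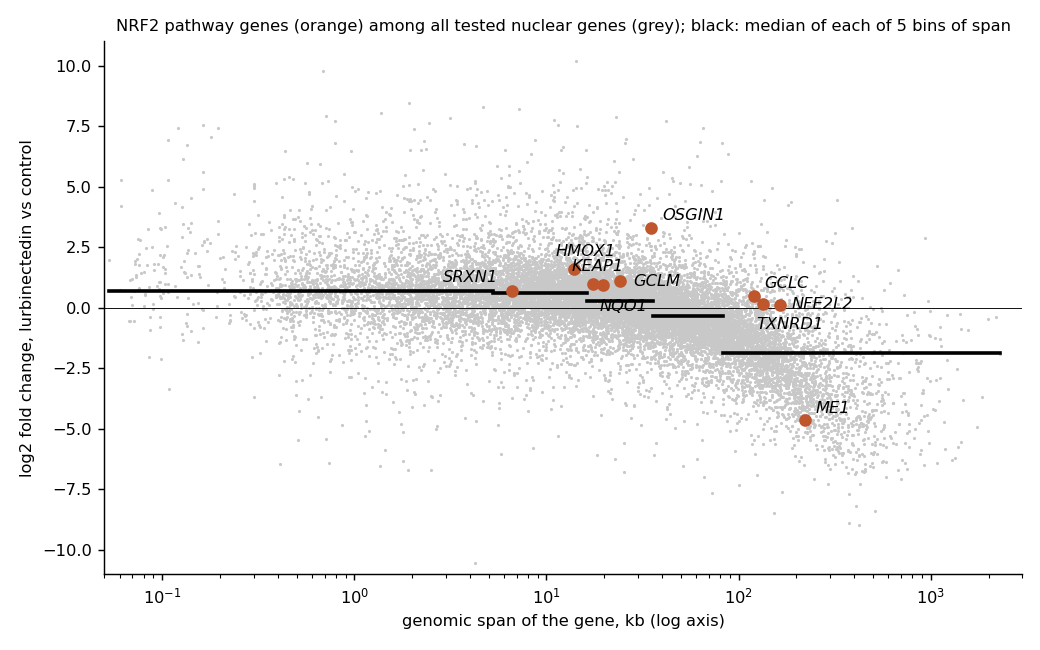
Log2 fold change with lurbinectedin (y axis) against genomic span in kb (x axis, log scale) for the tested nuclear genes (grey), the 10 genes of the set (orange) and the median of each of 5 bins of span (black lines). The medians go from 0.69 in the shortest bin to -1.86 in the longest, where NFE2L2, GCLC and TXNRD1 lie above the line and ME1 below it.

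The mRNAs of NRF2 regulators and partners also moved with lurbinectedin. Of 14, 9 rose and 4 fell, with a median log2 fold change of 0.59, beside 36.0% of all tested genes higher, 35.7% lower and a median of 0.05. The small MAF partners MAFF and MAFG rose by 3.06 (SE 0.132, adjusted p = 2.29e-10) and 1.58 (SE 0.142, adjusted p = 2.40e-07). SQSTM1, the autophagy receptor p62 that sequesters KEAP1, rose from 63.2 ± 0.895 to 223 ± 17 CPM (log2 1.82, adjusted p = 9.02e-07). CDKN1A, the p53-induced cell cycle inhibitor p21, which can also bind NRF2, rose from 22.8 ± 1.61 to 620 ± 42.2 CPM (4.76). BACH1, the repressor, rose by 0.42 (adjusted p = 0.00715). On the ligase side, CUL3 fell by 1.20, its partner RBX1 fell by 0.45, and BTRC, the receptor of a KEAP1-independent ligase, fell by 4.35. With the combination 7 rose and 5 fell, with a median of 0.51, beside 34.1% and 34.4% of all tested genes and a median of 0.04. With teriflunomide 1 of 14 passed, CDKN1A at 0.94 (adjusted p = 0.0141), beside 6.01% of all tested genes. At an unadjusted p under 0.05, 2 were higher and 1 lower, beside 4143 of the 16683 tested genes in either direction.

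Other genes commonly counted as NRF2 targets did not move one way. Of 33 such genes 26 were tested; with lurbinectedin 12 rose and 9 fell, with a median log2 fold change of 0.12, and with the combination 8 rose and 8 fell, with a median of -0.10. Over all tested genes 71.6% were called with lurbinectedin and 68.4% with the combination, so the subgroup counts below are to be read against 36.0% higher and 35.7% lower. In the heme and iron group 4 of 6 rose, led by the ferritin light chain FTL (1.18, adjusted p = 0.000631) and the heme transporter SLC48A1 (1.15, adjusted p = 4.48e-05), while the biliverdin reductase gene BLVRA fell by 0.87 and FECH, which inserts iron into heme, fell by 0.31. In the thioredoxin group 3 of 3 rose: PRDX1 by 0.70, TXN by 0.70 and PRDX6 by 0.48. With the combination TXN was the only one of these 3 to pass (0.24, adjusted p = 0.0328). Of 4 tested genes of glutathione supply and use, the transferase GSTM3 rose by 0.55, the glutathione reductase GSR fell by 0.84, and SLC7A11, the cystine importer, fell by 3.30 (SE 0.334, adjusted p = 7.91e-07), from 3.75 ± 0.0721 to 0.365 ± 0.221 CPM. Of the NADPH genes, IDH1 fell by 1.62, TKT fell by 1.22 and TALDO1 fell by 0.40, while PGD rose by 0.29. Among 8 tested genes of carbonyl and xenobiotic metabolism 3 rose and 2 fell, with EPHX1, an epoxide hydrolase, at 1.60 (adjusted p = 1.82e-08), UGDH at 0.29 and NQO2 at -0.74. With teriflunomide 1 of the 26 passed, GSTM3 at 0.38 (adjusted p = 0.0237), beside 6.01% of all tested genes. At an unadjusted p under 0.05, 4 were higher and 5 lower, beside 4143 of the 16683 tested genes in either direction. DESeq2 called 1 higher and 2 lower, beside 1068 and 822 of the 16683.

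Antioxidant enzymes outside the classic NRF2 targets were also called in both directions. Of 23 tested, 9 rose and 7 fell with lurbinectedin (median 0.07), and 8 rose and 8 fell with the combination (median -0.11). These counts are near the background shares of 71.6% and 68.4% of all tested genes called. The largest rises were in the sestrins SESN2 (3.33, SE 0.241) and SESN1 (2.53, SE 0.10), both stress-induced, and in glutathione peroxidase GPX1 (2.71, SE 0.273). SESN3 fell by 1.01, catalase (CAT) by 0.90 and TXNRD3 by 0.75. With teriflunomide 3 of the 23 passed, beside 6.01% of all tested genes. SESN1 rose by 0.85 (adjusted p = 0.000470) and SESN3 by 0.92 (adjusted p = 0.0218), and PRDX4 fell by 0.33 (adjusted p = 0.0404).

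**Figure D5:**
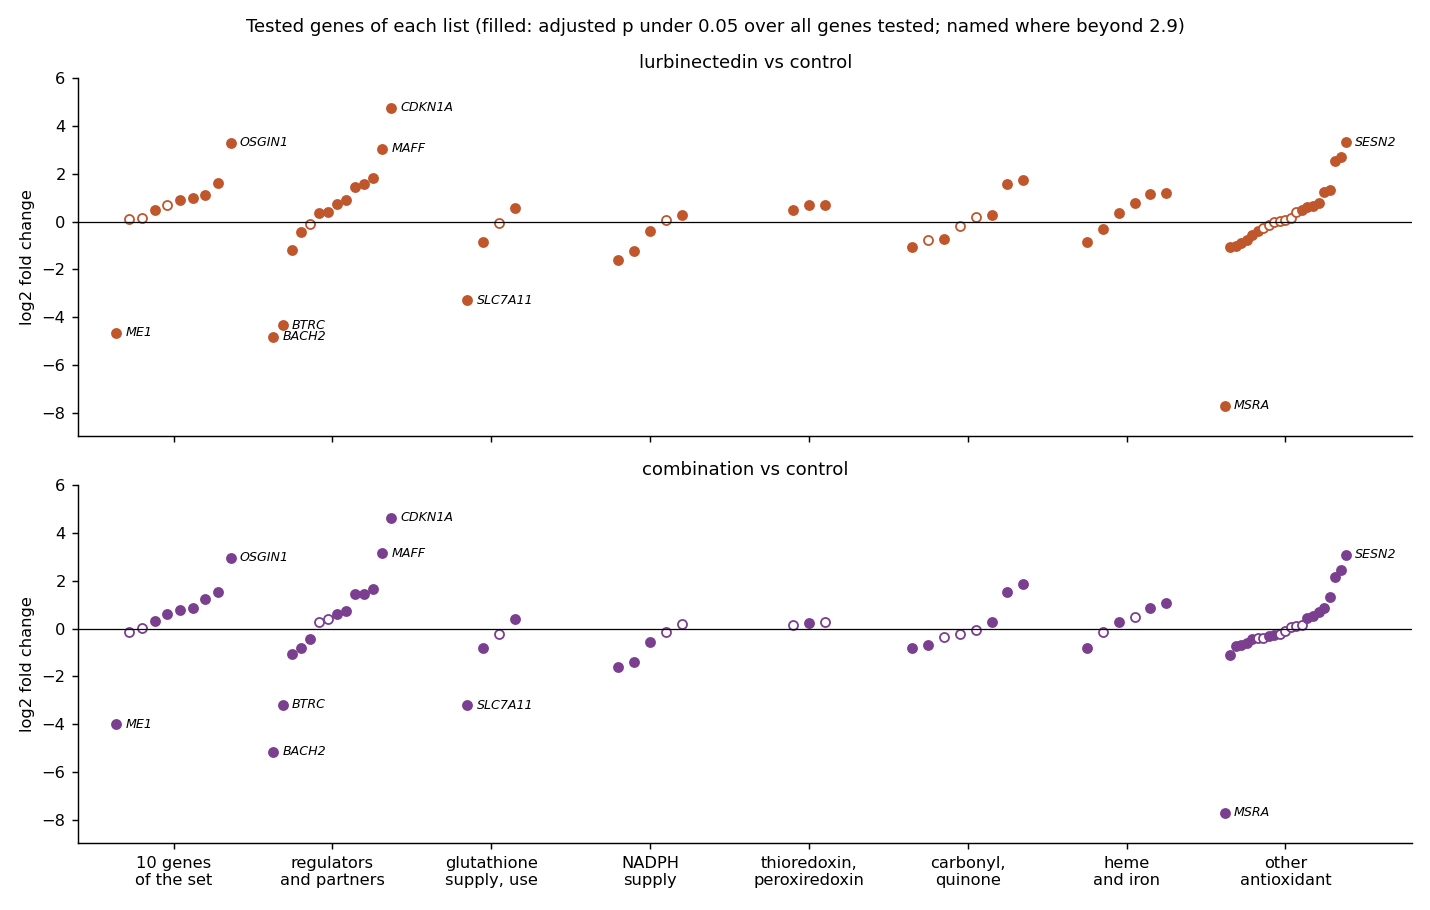
Log2 fold change against control (y axis) of the tested genes in each list (x axis) with lurbinectedin (upper panel) and with the combination (lower panel); filled points have an adjusted p under 0.05 over all genes tested, and genes beyond 2.9 are named. The regulators run from BACH2 and BTRC at the bottom to CDKN1A at 4.76; MSRA had 0 counts with lurbinectedin and the combination, so its fitted value depends on the prior count and is not a measured size.

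By Pearson correlation of log2 CPM over the 12 libraries, among 10439 tested genes with a mean of at least 5 CPM, the genes most like NFE2L2 were KITLG (r = 0.96), DSE (0.92) and PNPLA8 (0.92), and 5 genes exceeded 0.9. Those most like NQO1 were NINJ1, ACAD8 and SIDT2 (each r = 0.99), but 1785 genes exceeded 0.9. These correlations describe libraries that share treatments and carry no test.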

How the data were processed

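The values used were raw read counts per gene, which the authors deposited as 1 table per library. Per the submitters' processing notes the tools were fastp 0.23.2, STAR 2.7.9 and Subread featureCounts on hg38; annotation release and use of strand are not given in the sources used here. RNA was made into libraries with a kit that selects mRNA, per the labels' protocols. Symbols were matched for 60507 identifiers. Low-count genes were removed by filterByExpr, and the rest were scaled by TMM and tested with the edgeR 4.0.16 quasi-likelihood test (R 4.3.3; 1 mean per group over all 12 libraries, robust dispersion), with Benjamini-Hochberg adjustment over all 16683 genes and a threshold of 0.05. The fit was tested on simulated counts first. CPM uses TMM-scaled totals, and RPKM the exonic length in the tables; coordinates are the tables' own. DESeq2 1.42.0 was an alternative.

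The members and lists were chosen with earlier results of these data known. Named genes were all 10 members and, from each list and comparison with control, up to 3 called genes with the largest rise and up to 3 with the largest fall at a mean of at least 5 CPM, with BACH1, MAFG, CUL3, SQSTM1 and SLC7A11 whatever their values. NEUROD1, INSM1, NCAM1, EPCAM, CD3E, BACH2, MSRA and the overlapping genes are named outside that rule, after their values were seen. The values of some listed genes are not reported here.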

Additional observations from a re-analysis of the deposited data

Results flagged for a closer look

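SESN1, which encodes a stress-induced sestrin, had an interaction of -0.93 on the log2 scale (edgeR, adjusted p = 0.0139). Its difference between libraries with and without teriflunomide was smaller with lurbinectedin present than without it, by a test of that difference. The call did not pass at an adjusted p under 0.01, and its value in the other alternative fits is not reported here. It stood at 37.6, 37.3 and 35.4 CPM in the control group, 70.6, 68.0 and 60.5 under teriflunomide, 219, 211 and 205 under lurbinectedin, and 202, 216 and 184 under both drugs. Teriflunomide alone raised it in 3 of 3 libraries, and the combination and lurbinectedin libraries overlapped. Over all 12 libraries edgeR called no such difference among the 10 genes of the set (1 had an unadjusted p under 0.05, and DESeq2 called 0); ME1 passed (1.07, adjusted p = 0.0415) without teriflunomide library 3 and combination library 2.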

How the results depend on the processing

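The 10 genes gave 1304 fold changes over the alternatives, where the threshold of 0.01 reused those of the main fit. Of these 1284 kept their side of the threshold, many of them by being called in neither fit. A call was lost in 15 and gained in 5, and 0 reversed a called direction. The other sign appeared in 42 that were called in neither fit. Calls of the 10 genes with lurbinectedin and the combination numbered 7, and 7 or 8, with any 1 library left out. Counts over all genes moved more. With teriflunomide 1002 genes passed; 265 did with library size as the only scaling, 1800 with no expression filter, 415 with the replicate block, 283 with only the groups compared, 1890 (1 of the 10) with DESeq2, 230 at an adjusted p under 0.01, and 216 to 1555 with 1 library left out. For the combination against lurbinectedin 0 passed; 612 did with no filter, 94 with only the groups compared, 584 with DESeq2, and 0 to 2067 with 1 library left out (2067 without teriflunomide library 3, 259 without combination library 2). The interaction had 43; 6 passed with library size alone, 195 with no filter, 8 with the replicate block, 256 with DESeq2, 5 at 0.01, and 2 to 616 with 1 library left out (616 without teriflunomide library 3). Without both teriflunomide library 3 and combination library 2, chosen after seeing the data, the counts were 2757, 3640 and 1839 (1 of the 10). The cause was not tested. Library size alone shifted the median of all genes with lurbinectedin from 0.05 to -0.18, and its calls from 5999 higher and 5954 lower to 4313 and 6699; NFE2L2 then stood at -0.13. The replicate block changed no call of the 10 genes. Same-numbered libraries did not deviate together: 1 of 18 pairs had a correlation over 0.1, with a range of -0.40 to 0.14, and in no library was its own number the closest. Depth limits SRXN1 (0 to 22 counts per library) and ME1 with lurbinectedin (11 to 28 counts).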
